A study of Mus musculus with 8 samples.

Results

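Of 37230 open chromatin regions found in any of 8 libraries of mouse mammary epithelial cells, 1569 were called in both libraries of Ras-transformed cells treated with TGF-β and in none of the other 6 libraries. These regions were selected on the calls themselves. The peaks of all 8 lists were merged where they shared at least 1 bp, and a library called a region when any of its peaks overlapped it. The 1569 regions made up 4.21% of all regions. Their absence from the other 6 lists therefore describes how they were chosen and was not tested.

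The chromatin was assayed by formaldehyde-assisted isolation of regulatory elements with sequencing (FAIRE-seq), which recovers DNA that crosslinked protein does not hold. EpH4 is a mouse mammary gland epithelial line without active H-Ras, and EpRas is its H-Ras-transformed derivative. Each line was left untreated or given 1 ng/ml TGF-β3 for 8 days, with 2 replicate libraries in each of the 4 groups. Each genotype was represented by 1 line, and EpH4 was grown in 10% and EpRas in 4% serum, so that transformation, line and serum cannot be told apart. The lists held peaks and scores but no reads, so depth was unknown and a region missing from a list was not shown to be closed.

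Active Ras signals through the MAP kinase cascade to nuclear factors that include the AP1 proteins of the Jun and Fos families and members of the ETS family. TGF-β signals through serine/threonine kinase receptors to Smad proteins, which bind DNA weakly and often act beside other factors at enhancers. In mammary epithelium the combination is a classical route to the epithelial-mesenchymal transition (EMT), in which cells lose junctions, remodel actin and matrix, and become invasive. Enhancers lie mostly away from gene starts, whereas the chromatin of active promoters tends to be open in many cell states.

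Sequences from the strongest of these regions are shown first because AP1 letters were more frequent in the distal ones than in distal regions private to each other group, that is, called in both libraries of that group and in no other library. The AP1 letters searched were TGACTCA and its reverse complement TGAGTCA. Regions were ranked by the mean of their score percentiles in both lists. A percentile is the rank of a score from the lowest, ties averaged, as a percent of the peaks in that list. Of the 12 highest, 11 were distal, that is, farther than 2 kb from every annotated transcription start, and 8 of those held the letters within 500 bp centred on the midpoint. Each run is 101 bases of the plus strand of GRCm38.p6 (mm10), centred on the AP1 match nearest the midpoint. Capitals mark matches to AP1, RUNX, ETS or TEAD letters.
near Tas2r138, chr6:40607559-40607659: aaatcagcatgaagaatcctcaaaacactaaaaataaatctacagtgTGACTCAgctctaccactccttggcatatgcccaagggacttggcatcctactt
upstream of Pappa, chr4:64599334-64599434: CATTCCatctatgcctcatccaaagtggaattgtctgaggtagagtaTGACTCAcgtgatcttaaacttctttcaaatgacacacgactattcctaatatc
in Lingo2, chr4:36654581-36654681: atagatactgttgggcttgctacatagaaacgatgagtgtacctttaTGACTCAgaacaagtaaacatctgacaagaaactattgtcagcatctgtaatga
in Dpys, chr15:39778583-39778683: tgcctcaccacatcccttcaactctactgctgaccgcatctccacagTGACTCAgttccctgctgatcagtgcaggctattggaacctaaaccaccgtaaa
near Pop1, chr15:34571309-34571409: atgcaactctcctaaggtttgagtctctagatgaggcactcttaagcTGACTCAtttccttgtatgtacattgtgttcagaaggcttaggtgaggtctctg
in Magi2, chr5:19736829-19736929: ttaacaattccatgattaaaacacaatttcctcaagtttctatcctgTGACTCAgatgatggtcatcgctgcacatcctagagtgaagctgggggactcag
far from Slc39a10, chr1:47300952-47301052: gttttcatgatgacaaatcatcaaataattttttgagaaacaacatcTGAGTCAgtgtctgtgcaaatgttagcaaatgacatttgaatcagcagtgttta
near Abcb4, chr5:8877261-8877361: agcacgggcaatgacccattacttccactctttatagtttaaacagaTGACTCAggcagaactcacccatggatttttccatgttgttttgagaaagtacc

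The next runs come from distal regions at genes described further on, taken where AP1 letters were present, and are centred in the same way. They lay in or beside Map2k6, the kinase that activates p38, the ETS factor Etv4, the β3 integrin gene Itgb3 and Runx2, a RUNX factor. In the run near Etv4 an ETS match and an AP1 match stood in the same 101 bases. The other chosen regions at Map2k6, the strongest one among them, held no AP1 letters. Neither did the chosen regions at some other genes described further on, such as Fos and Wwtr1.
in Map2k6, chr11:110511634-110511734: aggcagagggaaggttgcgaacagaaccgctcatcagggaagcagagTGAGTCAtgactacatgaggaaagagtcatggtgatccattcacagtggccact
near Etv4, chr11:101768838-101768938: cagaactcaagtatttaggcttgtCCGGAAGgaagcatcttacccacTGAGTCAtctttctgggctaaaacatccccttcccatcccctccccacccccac
in Itgb3, chr11:104622713-104622813: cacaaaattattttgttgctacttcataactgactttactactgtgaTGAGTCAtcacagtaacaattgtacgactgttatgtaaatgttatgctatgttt
in Runx2, chr17:44767581-44767681: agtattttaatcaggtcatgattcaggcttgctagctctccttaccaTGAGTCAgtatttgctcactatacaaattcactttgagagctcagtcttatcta

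The other 3 of the 11 distal regions held no AP1 letters within 500 bp and are shown around their midpoints for contrast.
near Nrarp, chr2:25176733-25176833: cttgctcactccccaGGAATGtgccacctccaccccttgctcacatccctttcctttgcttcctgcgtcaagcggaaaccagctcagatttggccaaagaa
in Cdkal1, chr13:29504973-29505073: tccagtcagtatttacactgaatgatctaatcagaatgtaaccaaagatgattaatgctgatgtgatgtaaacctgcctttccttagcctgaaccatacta
in Efcc1, chr6:87745380-87745480: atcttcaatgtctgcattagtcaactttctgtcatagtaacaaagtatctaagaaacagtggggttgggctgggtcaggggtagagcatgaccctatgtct

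The size of the set was read against the same rule applied to the other groups. Regions called in both libraries of 1 group and in no other library numbered 168 for untreated EpRas cells, 320 for TGF-β-treated EpH4 cells and 158 for untreated EpH4 cells, which were 0.451%, 0.86% and 0.424% of all regions. The largest count came with the longest list. The TGF-β-treated EpRas lists held 27337 and 16833 peaks, the longest and the fourth longest of the 8, and the other lists held 10821 to 17927. With each list cut to its 10821 highest-scoring peaks the rule gave 466 regions for TGF-β-treated EpRas cells, against 325 for EpH4 cells given TGF-β, 310 for EpH4 cells left untreated and 259 for EpRas cells left untreated. Of those 466 regions, 202 overlapped the 1569, which was 43.3% of the shorter set and 12.9% of the longer. TGF-β-treated EpRas cells thus had the largest count both ways, and the excess over the next group was smaller with equal lists.

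Calls made in 1 replicate were read in the other, which the choice had not used. In this reading 8674 regions were called in replicate 1 of TGF-β-treated EpRas cells and in no other replicate 1 library. Replicate 2 of the same group called 2118 of them (24.4%, Wilson 95% interval 23.5 to 25.3). Untreated EpRas replicate 2 called 10.5% of them, untreated EpH4 replicate 2 called 5.71% and TGF-β-treated EpH4 replicate 2 called 3.50%. Over all regions those 4 libraries called 45.0%, 36.9%, 35.0% and 28.9%. The matching group had the highest share, and untreated EpRas, which shares the Ras transformation, came second. All 4 shares were below those over all regions. The choice had removed every region called in replicate 1 of another group, which bears on those groups' shares, so the order is a description.

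In the reverse reading 4410 regions were called in replicate 2 of TGF-β-treated EpRas cells and in no other replicate 2 library. The longer replicate 1 list of that group called 3224 of them (73.1%, 71.8 to 74.4), untreated EpRas replicate 1 called 30.4%, TGF-β-treated EpH4 replicate 1 called 21.7% and untreated EpH4 replicate 1 called 9.41%. The same libraries called 73.2%, 46.0%, 48.0% and 33.3% of all regions. The matching share was close to that library's share of all regions, and the shares of the other groups were below theirs. Untreated EpRas again came second, and the order of the 2 lower shares changed with the replicate. These intervals cover counting error over regions and not the spread between libraries.

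The regions were weak members of their own lists. Their scores, a value given by the peak caller whose unit was not stated, ran from 6.63 to 52.37 in replicate 1 with a median of 16.03, against 18.14 over that whole list. In replicate 2 they ran from 7.27 to 29.83 with a median of 13.36, against 16.03 over the list. Both medians were below those of their lists. The median percentile was 40.3 in replicate 1 and 29.5 in replicate 2, and 186 regions were in the upper part of both lists, above the 50th percentile. Another 832 were in the upper part of neither. Across regions the percentiles of both replicates had a Pearson correlation of 0.291 and a Spearman correlation of 0.278, as a description over 1569 regions that share 2 libraries.

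**Figure D1:**
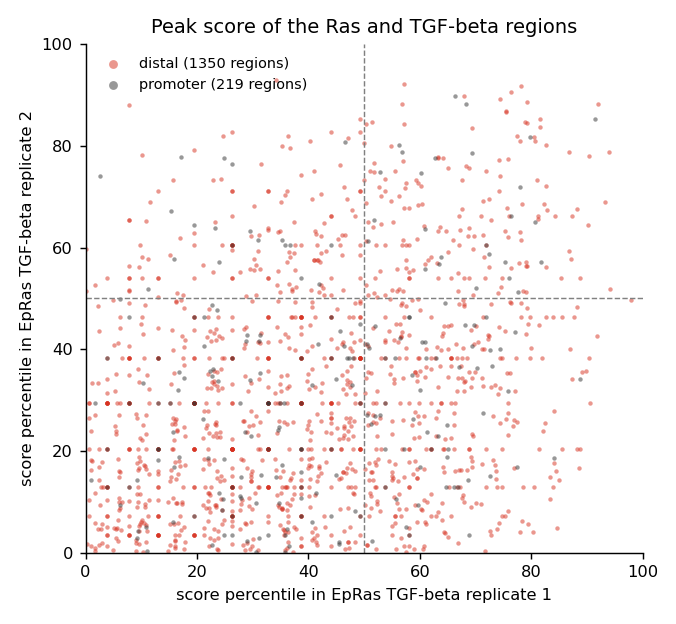
Score percentile of each of the 1569 regions in the 2 EpRas TGF-β lists, replicate 1 on the x axis and replicate 2 on the y axis, with distal regions in red and promoter regions in dark grey. Dashed lines mark the middle of each list, and most points lie below both lines, with 186 above both.

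Regions just outside the rule's limit were a little stronger than the chosen ones on one side and weaker on the other. There were also 1569 regions called in both EpRas TGF-β libraries and in exactly 1 other library, a count that happened to equal that of the chosen set. Their median scores were 18.07 and 14.2 in replicates 1 and 2, a little above the 16.03 and 13.36 of the chosen regions. The single other library was untreated EpRas replicate 1 for 693 of them and replicate 2 for 306. It was TGF-β-treated EpH4 replicate 1 for 340 and replicate 2 for 57, and untreated EpH4 for 84 and 89. In that other library their median score was between 11.86 and 12.71. On the other side of the limit, 5632 regions were called in EpRas TGF-β replicate 1 alone, with a median score of 12.55 and a median percentile of 19.5, and 859 in replicate 2 alone, with 12.31 and 20.5.

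The regions were mainly distal. Only 219 of the 1569 (14.0%, Wilson 95% interval 12.3 to 15.8) had their midpoint within 2 kb of an annotated transcription start, against 31.7% of all regions. Of the 1350 distal regions 689 (51.0%) were intronic and 618 (45.8%) intergenic. A further 10 were in coding exons, 18 in untranslated regions and 15 in other exons. Intronic and intergenic shares over all distal regions were 50.2% and 46.6%, so the split between them hardly differed. The median distance of a distal region to a start was 17.4 kb, against 16.1 kb over all distal regions, and 281 (20.8%) were more than 50 kb away, against 15.6%.

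The promoter share followed how widely a region was called. Among regions called in both EpRas TGF-β libraries, it was 14.0% for those called in no other library and rose to 22.3%, 27.4%, 34.6%, 41.3%, 45.0% and 49.7% for those called in 1 to 6 of the others. Median width rose over the same steps from 275 to 418 bp, the median of the mean percentiles from 35.2 to 81.7, and mean GC content of distal windows from 44.0% to 48.0%. Position, width, score and base composition thus moved together, and their parts in one another were not tested.

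AP1 letters were found in 796 of the 1350 distal regions (59.0%, Wilson 95% interval 56.3 to 61.6), against 46.7% of all distal regions with windows of the same 500 bp. The share was 48.9% in the distal regions private to TGF-β-treated EpH4 cells (42.9 to 54.9), 30.4% in those private to untreated EpRas (22.6 to 39.4) and 28.6% in those private to untreated EpH4 (21.2 to 37.3). The share was highest in the EpRas TGF-β set of these 4, and 57.5% (55.4 to 59.6) of the distal regions called in all 8 libraries held the letters. As all such intervals here, these cover counting error over regions of the same libraries and not the spread between libraries. Along the steps from 0 to 6 other libraries the AP1 share stayed between 54.6% and 61.4% with no steady rise or fall. Among distal regions called in both EpRas TGF-β libraries the chosen set thus did not stand apart in its share of AP1 letters. Its promoter share, width, score and GC content were the lowest of these steps.

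**Figure D2:**
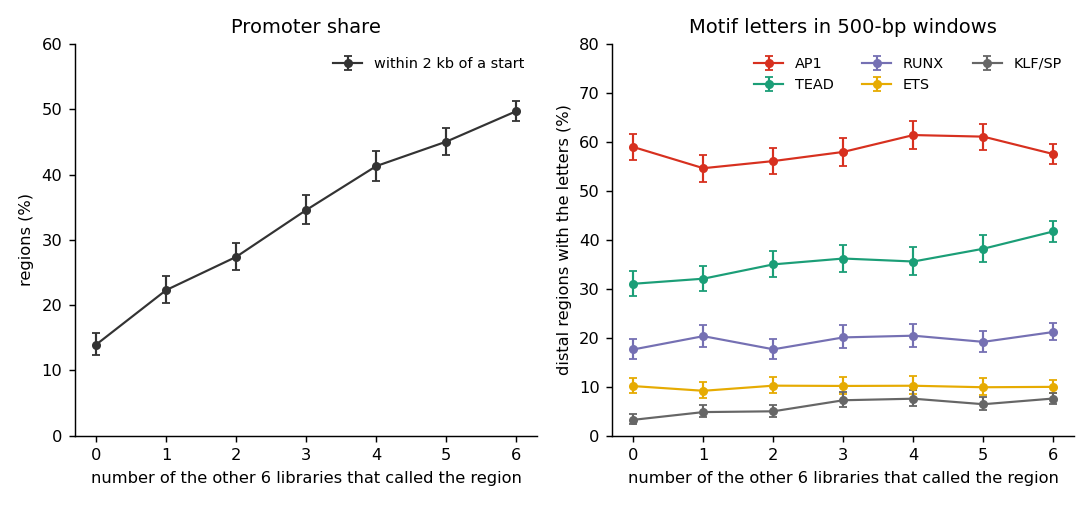
Regions called in both EpRas TGF-β libraries, by the number of the other 6 libraries that called them (x axis). The y axes give the percent within 2 kb of a transcription start (left) and the percent of distal regions with each motif's letters in a 500-bp window (right), with Wilson 95% intervals as bars. The promoter share rises from 14.0% to 49.7%, TEAD letters rise from 31.0% to 41.7%, and AP1 letters stay between 54.6% and 61.4%.

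The AP1 letters were concentrated at the middle of the regions. The sites were at a density of 4.81 per kb within 50 bp of the midpoint, 1.64 per kb from 50 to 100 bp and 0.19 per kb from 150 to 200 bp. A site within 50 bp of the midpoint was present in 587 distal regions (43.5%). That share was 31.7% over all distal regions, 33.6% in those called in all 8 libraries, 31.2% in those private to TGF-β-treated EpH4 cells, 18.8% for untreated EpRas and 16.8% for untreated EpH4. Regions called in all 8 libraries were wider, which moves with the looser placement, and its part was not tested.

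**Figure D3:**
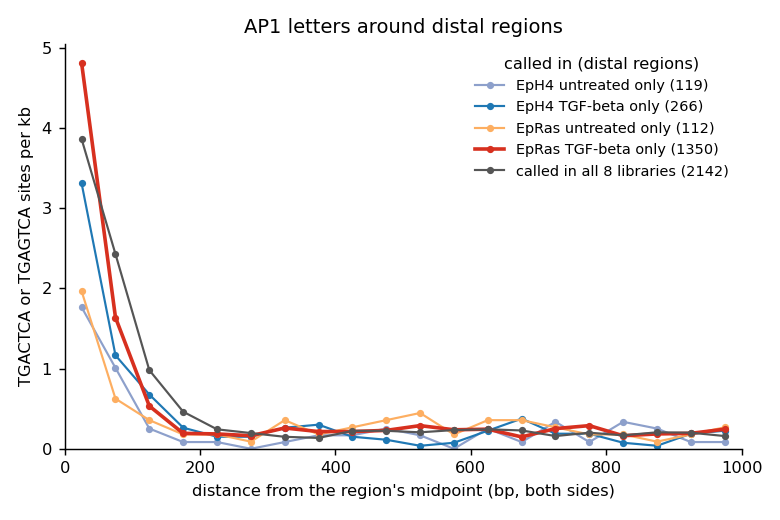
Density of AP1 letters (TGACTCA or TGAGTCA, sites per kb, y axis) by distance from the midpoint of distal regions (bp, x axis), for regions private to each group and for those called in all 8 libraries. The EpRas TGF-β line starts highest, at 4.81 sites per kb, and all lines are near their outer level from 250 bp on.

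The stronger regions held AP1 letters more often. In 4 classes of 337 or 338 distal regions by mean percentile, from weakest to strongest, 52.1%, 57.3%, 59.3% and 67.2% of the regions had a site. The Wilson 95% intervals were 46.8 to 57.3 for the weakest and 62.0 to 71.9 for the strongest class. ETS letters did not follow the score, at 10.9%, 9.20%, 9.20% and 11.2%. RUNX letters were at 19.8%, 16.6%, 18.4% and 15.7%. A region had 2 or more AP1 sites in 174 cases (12.9%), against 9.74% of all distal regions and 18.7% of those called in all 8 libraries.

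Letters of the other factors were no more frequent than in all distal regions, or only slightly. ETS letters (NCGGAAN, with A or C in the first and A or G in the last place), bound by the family of Etv4 and Etv5, were in 10.1% against 9.09%. RUNX letters (TGTGGTT) were in 17.6% against 17.9%. Smad letters (GTCTGG) were in 28.1% against 28.6%, and in 38.7% (33.1 to 44.7) of the distal regions private to TGF-β-treated EpH4 cells. TEAD letters (GGAATG), read by the partners of the Hippo effectors YAP and TAZ, were in 31.0% (28.6 to 33.6) against 34.1%. Both the Smad and the TEAD share were thus lower in the chosen regions than in 1 or more of the compared sets.

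E-box letters (CAGGTG), bound by Zeb and Snail repressors of epithelial genes, gave one of the wider contrasts between groups. They were in 24.6% (22.4 to 27.0) of the chosen distal regions, 41.2% (32.7 to 50.2) of those private to untreated EpH4 cells, 39.1% (33.4 to 45.1) of those private to EpH4 cells given TGF-β and 14.3% (9.0 to 22.0) of those private to untreated EpRas. The share in all distal regions was 29.2%. The chosen regions were below both EpH4 sets. Forkhead letters (TGTTTAC) were in 8.81% against 7.95% and STAT letters (TTCNNNGAA) in 17.6% against 17.6%, and KLF/SP letters (GGGCGGG), typical of promoters, in 3.26% against 5.72%. All motifs were searched on both strands, matches of different motifs could overlap, and a match describes letters and not a bound factor.

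RUNX, ETS, TEAD and Smad letters were each slightly less frequent beside AP1 letters than without them. Of the 796 distal regions with AP1 letters 16.1% also held RUNX letters, against 19.9% of the 554 without. The shares were 9.42% and 11.2% for ETS, 30.0% and 32.5% for TEAD, and 27.3% and 29.2% for Smad letters. E-box, STAT and p63-like letters went the other way, with 25.9% and 22.7%, 18.0% and 17.0%, and 2.14% (17 regions) and 0.36% (2 regions). None of the AP1, RUNX, ETS, TEAD and Smad motifs was present in 184 distal regions (13.6%), against 18.5% of all distal regions. Over all distal regions, with and without AP1 letters, RUNX (16.8% and 18.9%), ETS (8.53% and 9.58%) and TEAD letters (33.3% and 34.7%) had the same order. Smad letters did not (29.0% and 28.3%). E-box letters were in 29.6% and 28.7% there, STAT letters in 17.1% and 18.0% and p63-like letters in 1.34% and 1.02%.

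The 219 promoter regions differed in letters from promoters at large. AP1 letters were in 33.8% of them (27.9 to 40.3), against 16.1% of all promoter regions and 11.7% of those called in all 8 libraries. ETS letters were in 13.7% (9.77 to 18.9), against 31.6% and 41.6%. KLF/SP letters were in 21.9% (16.9 to 27.9), against 44.3% and 56.5%. Mean GC content of their windows was 50.0%, against 56.8% over all promoter regions. The 54 promoter regions private to TGF-β-treated EpH4 cells were similar, with AP1 letters in 27.8% (17.6 to 40.9), ETS in 16.7% and KLF/SP in 20.4%. Those shares were 15.4%, 15.4% and 33.3% in promoters private to untreated EpH4, and 5.36%, 26.8% and 44.6% for untreated EpRas. Motif letters and base composition moved together here, and the part of base composition was not tested.

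The comparison across libraries used shares that calls do not fix. For each library, the regions called in it and in no library of another group were taken, and their sequence and position were compared between the 2 EpRas TGF-β libraries and the other 6. AP1 letters were in 49.6% and 53.0% of these distal regions in the 2 EpRas TGF-β libraries. They were in 37.9% and 38.0% for TGF-β-treated EpH4, 30.0% and 28.6% for untreated EpH4, and 25.2% and 23.9% for untreated EpRas. No library of another group reached the lower of the 2 EpRas TGF-β values. The means were 51.3% ± 2.38 (SD, n = 2) and 30.6% ± 6.10 (SD, n = 6), a difference of 20.7 percentage points, with an exact two-sided permutation p of 0.0357 and a Benjamini-Hochberg adjusted p of 0.0893 over the 5 measures. That p is the smallest that 28 assignments of the libraries allow, and with 2 of the 5 measures at that limit the adjusted p could not be lower.

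**Figure D4:**
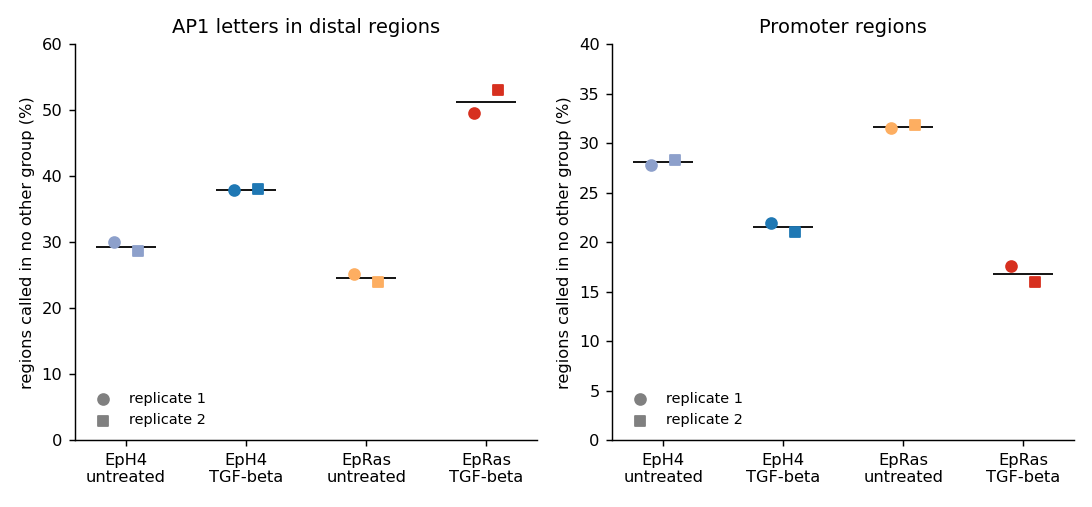
Percent of regions called in no other group, for each library, that held AP1 letters (left, distal regions) or lay within 2 kb of a transcription start (right). Circles are replicate 1, squares replicate 2 and lines the mean of both. The EpRas TGF-β libraries are highest for AP1, at 49.6% and 53.0%, and lowest for promoters, at 17.6% and 15.9%.

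Promoter shares were lowest in the same libraries. They were 17.6% and 15.9% in EpRas TGF-β, 22.0% and 21.0% in TGF-β-treated EpH4, 27.8% and 28.3% in untreated EpH4, and 31.5% and 31.8% in untreated EpRas. The groups did not overlap, with means of 16.8% ± 1.16 (SD, n = 2) and 27.1% ± 4.62 (SD, n = 6), a difference of -10.3 percentage points, an exact two-sided permutation p of 0.0357 and an adjusted p of 0.0893. The other 3 measures overlapped between the groups. ETS letters differed by 0.86 points (exact permutation p = 0.393), RUNX letters by 1.83 points (exact permutation p = 0.429) and the repeat-masked share of the windows by 0.87 points (exact permutation p = 0.357), each with an adjusted p of 0.429.

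Both EpRas TGF-β values contain the 1569 regions, since these were called in both libraries. With regions called in 1 library alone, a reading added after the data were seen in which no region counts more than once, AP1 letters were in 46.8% and 41.2% for EpRas TGF-β and in 22.1% to 35.8% for the other 6 libraries. That difference was 15.7 points, with the same exact permutation p of 0.0357. With lists of equal length the AP1 shares were 61.3% and 57.3%, against 31.6% to 41.9%, so the libraries were separated in that reading too.

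These shares differed more between treated and untreated libraries in EpRas than in EpH4 cells. The AP1 share was 26.7 points higher in treated than in untreated EpRas libraries, and 8.66 points higher in treated than in untreated EpH4. Different regions are compared, since each library's set excludes regions called in any other group. The difference of 18.0 points had an exact permutation p of 0.0556, the smallest that 36 assignments of the line labels within treatment allow. Promoter shares changed by -14.9 points in EpRas and -6.58 in EpH4, a difference of -8.32 points with the same exact permutation p of 0.0556. Neither could pass 0.05 in this design. Shuffling the line labels takes the lines as alike at each treatment, so it does not test the difference of effects by itself.

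The chosen regions were spread over the genome. The nearest other chosen region was at a median of 335 kb, 92 (5.86%) had one within 10 kb, and the smallest gap was 200 bp. A region of another kind was at a median of 12.6 kb, and 155 (9.88%) had one within 1 kb. Runs of 3 with gaps of at most 25 kb occurred 4 times, in Ppfibp1, near Azin1, in Map2k6 and at Adam19, and no run was longer. Among autosomes and X the number per 100 regions ran from 2.60 on chromosome 5, 2.74 on chromosome 9 and 2.82 on chromosome 6 to 5.65 on X, 5.67 on chromosome 18 and 6.08 on chromosome 12. The copy number of these chromosomes in each line is not known from the lists, and its part was not tested.

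The strongest regions were mostly far from the nearest start of a protein-coding gene, which is the gene named here. An annotated start of any kind could be nearer. It was at 9.11 kb for the Lingo2 region, 155 kb for that named after Pappa and 65.4 kb for that named after Slc39a10. The highest-ranked lay 5.67 kb from the start of Tas2r138, a bitter taste receptor gene, with scores of 39.17 and 26.2 in replicates 1 and 2. One in an intron of Lingo2, which encodes a leucine-rich repeat membrane protein, scored 28.26 and 28.76. One in an intron of Magi2, which encodes a junctional scaffold protein, was 171 kb from the gene's start and scored 30.2 and 24. Replicate 1 had the higher score in 1120 of the 1569 regions, and the Lingo2 region was one of those that went the other way.

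Nrarp, which encodes a feedback inhibitor of Notch signalling, had a region at 3.98 kb from its start. It scored 27.36 and 27.73 and held no AP1 letters, as its printed run shows. A region in an intron of Cdkal1, a tRNA-modifying enzyme gene, scored 30.29 and 24.81 and lay 351 kb from the start, with no AP1, ETS or RUNX letters. The region 76.0 kb from Pop1, which encodes a subunit of RNase P, scored 28.96 and 26.44. A promoter region 0.82 kb from an annotated start and 7.16 kb from that of the tubulin gene Tuba1b scored 38.5 and 24.81. Regions 525 kb from Pappa, 447 kb from Slc39a10 and 16.4 kb from Abcb4 also ranked among the 12. So did those in introns of Efcc1 and Dpys, the second with Dcstamp as the nearest protein-coding start.

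Several genes gathered more than 1 of the regions. Within the gene and 20 kb on each side, 1374 of 21924 protein-coding genes (6.27%) had at least 1, of which 1219 had 1, 142 had 2 and 13 had 3 or more. Map2k6, which encodes the p38-activating kinase, had the most, with 5 of its 12 regions. They lay at 6.73, 39.9, 40.4, 51.5 and 113 kb from its start, all in introns. Their scores were 15.75, 19.14, 29.61, 9.49 and 18.72 in replicate 1, and 14.51, 13.13, 23.43, 11.29 and 11.42 in replicate 2. The one at 40.4 kb was the strongest in both libraries.

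At Map2k6 the region at the gene's start was called in 6 libraries, those of all 4 groups except replicate 1 of each EpH4 group. An intronic region at 97.1 kb was called in both untreated and both treated EpRas libraries and in no EpH4 library. The 5 chosen regions thus stood in a gene whose start was listed as open in every group. AP1 letters were found in the one at 113 kb, with 3 sites in its window, and in none of the other 4.

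Fmn2, which encodes an actin-nucleating formin, had 7 regions, of which 4 were chosen and the other 3 were each called in 1 EpRas TGF-β library. No library of another group called a region there. The 4 chosen regions lay at 98.4, 139, 147 and 188 kb from its start and scored 13.5, 24.13, 13.5 and 14.23 in replicate 1 and 13.61, 12.29, 14.92 and 13.35 in replicate 2. Reln, which encodes the secreted glycoprotein reelin, likewise had 6 regions and none outside the EpRas TGF-β libraries. Of these 3 were chosen, at 15.8, 120 and 231 kb, and all 3 held AP1 letters. The remaining 3 were called in replicate 1 alone.

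**Figure D5:**
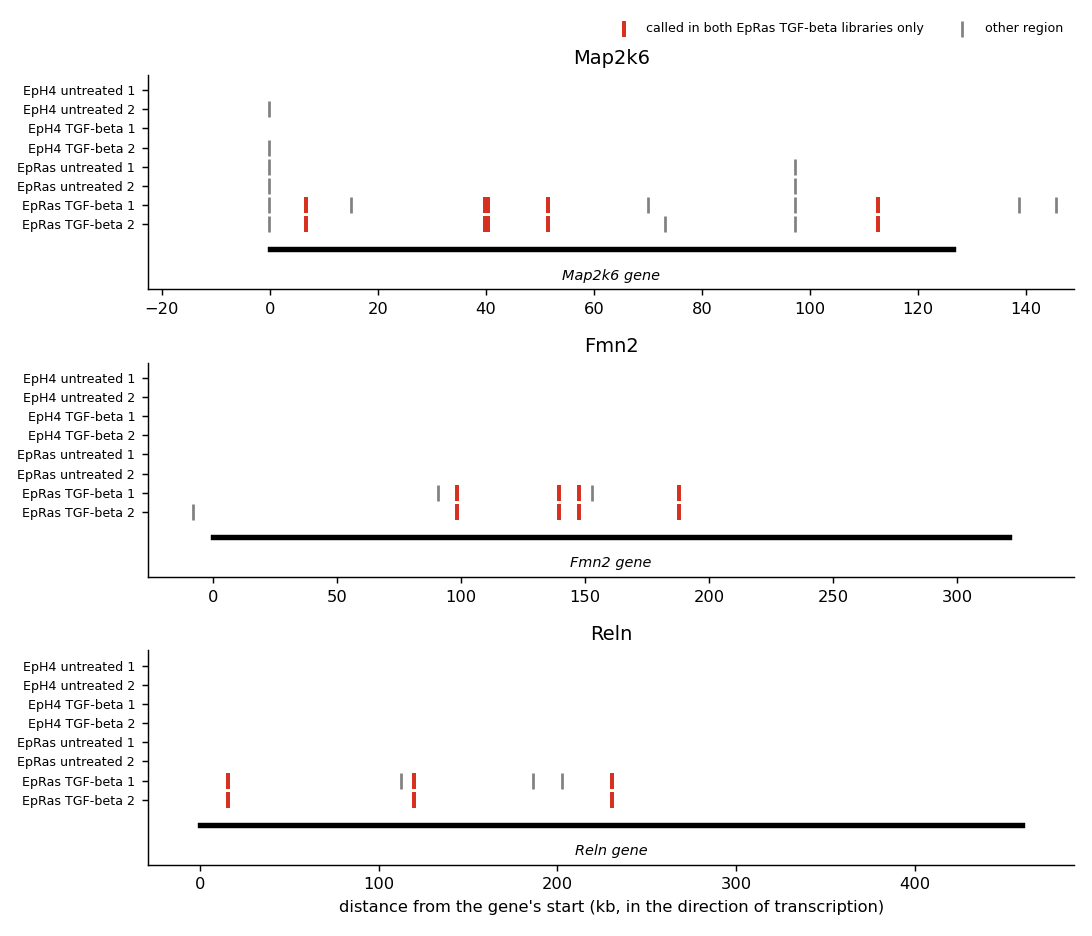
Calls in each library (rows, with the replicate number) along Map2k6, Fmn2 and Reln, by distance from the gene's start (kb, x axis), with the gene as a black bar. Red marks are regions called in both EpRas TGF-β libraries only, 5 at Map2k6, 4 at Fmn2 and 3 at Reln. Grey marks are other regions, which at Fmn2 and Reln are in EpRas TGF-β libraries alone.

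Anks1b, which encodes a synaptic scaffold protein, had 4 of 10 regions in a gene of 1100 kb. Ppfibp1, which encodes liprin-β1, had 3 of 11, all between 44.9 and 53.7 kb from its start, and the overlapping gene 1700034J05Rik had the same 3. Lingo2 had 3 of 14, in a gene of 1245 kb in which untreated EpRas called 7 and 4 regions and EpH4 libraries called 0 to 2. Gm20388, a gene model 4435 kb long that spans many genes, had 4 of 238. Genes with several chosen regions thus ranged from short to very long models.

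Of the 17 gene lists examined, that of integrins and laminins, the receptors and basement membrane proteins of cell adhesion, had the largest share among lists of more than 4 genes. Chosen regions were found at 7 of its 28 genes (25%, against 6.27% of all genes). These genes were longer, with a median of 90.8 kb against 17.4 kb, and had a median of 5 regions against 2. Counted over regions, 8 of 142 at these genes were chosen (5.63 per 100), against 3.17 per 100 over all protein-coding genes. Both ways of counting were above the background, the second by less. In the second, a region counts once for each gene whose span and flanks hold it. Of all regions 4.21% were chosen, 1350 of 25424 distal and 219 of 11806 promoter ones. The mix of distal and promoter regions at these genes was not examined, so the count is not read as an excess.

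Itgb3, the β3 integrin gene, had 2 of 8 regions chosen, at 14.7 and 23.5 kb from its start, with scores of 20.04 and 15.26 in replicate 1 and 15.05 and 9.38 in replicate 2. Both were intronic, and the first had the higher score in each library. A single region was chosen at the integrin genes Itgb5 and Itga7 and at the laminin genes Lamc3, Lamb1 and Lamc1. The mean percentiles of those 5 ran from 17.9 at Lamc1 to 53.6 at Itgb5, and the remaining gene had 1 chosen region at 14.2.

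The mesenchymal and matrix list had 6 of 32 genes (18.8%, against 6.27% of all genes) with a chosen region. Counted over regions that was 5.17 per 100, against 3.17 over all protein-coding genes. These genes were longer, with a median of 29.3 kb against 17.4 kb. Their mix of distal and promoter regions was not examined, so the count is not read as an excess. The 6 genes were Lgals1 (galectin-1), S100a4, a calcium-binding protein of motile cells, Col6a3, Postn (periostin), and the collagen cross-linking enzymes Loxl2 and Loxl3. Postn was also the only gene of 20 in the list of TGF-β targets, 1.2 per 100 regions. Its chosen region lay at 40.8 kb from the start and scored 19.91 and 11.25. The strongest by mean percentile was that at Lgals1 (61.0), at -10.9 kb from its start and close to the start of another gene.

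Counted over regions, genes of the pathways themselves were near or below the 3.17 per 100 of all genes. The TGF-β ligand, receptor and Smad list had 4 of 35 genes (11.4%) with a chosen region. There were 2 in Ltbp1 and 1 in Ltbp2, both encoding latent TGF-β binding proteins. Smad5 and Smurf1, a ubiquitin ligase of the pathway, had 1 each. Counted over regions these 5 were 3.68 per 100. The Ras and MAPK feedback list had 2 of 24 (8.33%), 3.61 per 100 regions. Of these, 2 chosen regions were in Nf1, the Ras GTPase-activating protein neurofibromin, and 1 was beside Spred3. The AP1 family had 1 of 18 (5.56%), 1.2 per 100 regions, at 12.2 kb from the start of Fos, scoring 17.21 and 17.76, with ETS but no AP1 letters.

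The ETS family had 2 of 22 genes (9.09%), 2.82 per 100 regions. The region at Etv4 lay at 16.5 kb from its start, past the end of the gene, and scored 15.8 and 15.09. It had 2 AP1 sites and 1 ETS site in its window. The start of Etv4 itself was called in all 8 libraries, with 64.42 and 40.97 in EpRas TGF-β and 13.34 to 48.75 in the others. At Etv6 1 of 8 regions was chosen, an intronic one scoring 9.51 and 12.31. Etv5 had 4 regions and none was chosen, its intronic region at 50.4 kb being called in all 4 EpRas libraries.

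Of 4 RUNX family genes (3 RUNX factors and a partner were listed) only Runx2 had a chosen region (25%, against 6.27% of all genes). That was 2.86 per 100 regions, against 3.17. It was 1 of 13 regions at Runx2, lay at 47.2 kb and scored 16.14 and 15.67. The EMT transcription factor list had 2 of 23 (8.70%), 2.41 per 100 regions. At Wwtr1, which encodes the Hippo effector TAZ, 1 of 14 regions was chosen, at 84.1 kb and scoring 31.82 and 12.07. At Zeb2, an E-box repressor, 1 of 4 was chosen, at 140 kb and scoring 11.07 and 10.25. Proteases and inhibitors had 3 of 32 (9.38%), 2.52 per 100 regions, at Mmp16, Adam12 and Plaur, the urokinase receptor gene. The actin list had 4 of 32 genes (12.5%, against 6.27% of all genes) but 2.25 per 100 regions, against 3.17, at Rock2, Diaph1, Mrtfa and Mrtfb. That at Rock2 was 1.40 kb from the start and scored 27.06 and 13.53.

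Epithelial genes were near the background when counted over regions. The junction and splicing list had 4 of 31 genes (12.9%, against 6.27%) and 3.01 per 100 regions, against 3.17. The genes were Krt8 and Krt18, which shared 1 region, Cldn4 and Grhl2, an epithelial transcription factor. The same keratin region accounted for both genes of the 20 luminal and basal markers. The EGF receptor family and its ligands had 0 of 14. Markers of fibroblasts, of leukocytes, and of endothelial cells and adipocytes had 0 of 10 genes each, and 7, 6 and 9 of these genes had a region of some kind. With 6.27% of all genes having a chosen region, lists this short say little. The lists were written with earlier results of these data known, and the counts carry no test.

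At the other genes followed in the study no region was chosen. The 1 region at Mmp13, the collagenase-3 gene, at -13.9 kb from its start, was called in 7 libraries and missed in EpRas TGF-β replicate 2. Its score was highest in EpRas TGF-β replicate 1, at 27.15, against 10.73 to 20.22 in the other 6. Cdh2, the N-cadherin gene, had 5 regions, all called in EpRas libraries only and none in both treated libraries. Cdh1, the E-cadherin gene, had 7 regions, Fn1, the fibronectin gene, had 2 and the splicing factor gene Esrp2 had 4.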

How the data were processed

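FAIRE-seq libraries of EpH4 and EpRas cells were sequenced on an Ion Proton. According to the study's methods and the submitters' processing notes, the authors used Bowtie2 to map reads to mm10 and MACS2 2.0.9 to call peaks. The deposited files were 8 peak lists, 1 per library, each with a score from the authors' peak caller whose unit was not stated. The score served only to rank or filter peaks. Lists held no reads, so depth was unknown.

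Peaks were merged and called as described above in Python 3.11.15 with numpy 2.4.6, pandas 2.3.3 and scipy 1.17.1. Genome and genes were GRCm38.p6, the mm10 build, and GENCODE vM21 (basic set). None of the 129466 peaks (0) reached past a chromosome end. Promoters were within 2 kb of any of 81033 starts, and motifs were counted in 500 bp around midpoints. Shares carry Wilson 95% intervals. Libraries were compared by exact two-sided permutation of 5 measures, 2 libraries against 6, with Benjamini-Hochberg adjustment. The code was tested on simulated data. Replicates were called biological in the study's methods, and p-values measure only the spread between these libraries. The 6 other libraries came from different conditions, so that spread includes differences between conditions. Replicates of a group could also share regions called in no other group.

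For each of the 12 strongest regions the protein-coding gene with the nearest start was named. Also named were the 8 genes with most chosen regions, at most 6 per list and 7 from the study. Members, lists and measures were chosen with earlier results of these data known. 1 listed gene is not reported here.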

Additional observations from a re-analysis of the deposited data

Results flagged for a closer look

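The repeat-masked share of the distal regions called in no other group moved in opposite directions with TGF-β in the lines. It was 17.87% and 15.98% in the untreated and 14.59% and 15.88% in the treated EpH4 libraries, and 16.4% and 16.4% in the untreated and 17.5% and 16.6% in the treated EpRas libraries. Within each line no treated library lay within the range of the untreated ones. The TGF-β effect in EpRas minus that in EpH4 was 2.35 percentage points, with an exact permutation p of 0.167 where 0.0556 is the smallest that 36 assignments allow. The pattern depended on the regions used. With peaks above the median score of all lists (15.51) the EpRas shares were 16.9% and 15.3% untreated and 15.6% and 15.9% treated. Those shares overlapped and did not rise. In regions called in 1 library alone the EpH4 shares were 18.0% and 15.6% untreated and 14.9% and 18.5% treated, so they overlapped too.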

How the results depend on the processing

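The number of regions depended on list length and on single libraries. It was 466 with lists of equal length and 1338 with peaks above the median score (302 overlapping the 1569). It was 1599 where a peak had to cover at least 50% of a region and 1534 where a peak within 500 bp counted. That median was 15.51 over the peaks of all lists, so the cut was uneven. The lists' own medians ran from 13.34 in TGF-β-treated EpH4 replicate 2 to 18.14 in EpRas TGF-β replicate 1. Leaving out 1 library gave 1626 to 7207, with 7207 without EpRas TGF-β replicate 2, 2435 without replicate 1 and 2264 without untreated EpRas replicate 1. The promoter share was 18.2% with peaks above the median score, 9.94% with a promoter distance of 1 kb, and 13.8% to 17.6% with 1 library left out, the highest without EpRas TGF-β replicate 2. The AP1 share of distal regions was 63.2% both with equal lists and above the median score, 53.9% in windows of 200 bp, and 49.6% to 59.1% with 1 library left out, the lowest without EpRas TGF-β replicate 2. Causes were not tested, except that fewer required lists admit more regions by construction.

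The 5 differences between libraries kept their direction in all 15 alternatives of the AP1, ETS, RUNX and repeat measures and of the promoter share, and their adjusted p stayed above 0.05 in all of them. The AP1 difference was 18.1 to 21.7 points with 1 library left out and 15.7 to 23.4 points otherwise. The exact permutation p of the promoter difference was 0.143 above the median score, where the groups overlapped. It was 0.0952 without untreated EpH4 replicate 1, untreated EpH4 replicate 2 or TGF-β-treated EpH4 replicate 1. Without untreated EpRas replicate 1 it was 0.143. For the AP1 difference the exact permutation p was 0.0476 with each of these libraries left out. Same-numbered replicates shared only a number in the labels, and a shared batch was not tested. Their call differences between groups correlated at -0.05 to 0.00 over regions, a measure that a shift of a whole library does not enter. With a replicate block the exact permutation p was 0.0625 for the AP1 difference of 20.7 points and for the promoter difference of -10.3, the smallest of 16 assignments, and 0.438, 0.500 and 0.438 for ETS (0.86), RUNX (1.83) and repeats (0.87). No depth could be had from the lists.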
